A study of Arabidopsis thaliana with 24 samples.

Results

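The comparison set mock-treated roots of the J0571 cross against mock-treated roots of the C24 cross, 3 libraries each, so that 6 of the 24 libraries of the series were compared across all genes. Every seedling was an F1 plant of Arabidopsis thaliana that carried UAS::abi1-1, a transgene encoding a dominant form of the ABA-pathway phosphatase ABI1 under the yeast upstream activating sequence. The C24 group came from the cross UAS::abi1-1xC24, which brings no driver, and the J0571 group from UAS::abi1-1xJ0571, whose enhancer trap supplies the activator that switches the transgene on. The 6 pools had been moved for 8 h to plates without ABA, the same number of pools of these lines to plates with 1 µM ABA, and the crosses UAS::abi1-1xJ1721 and UAS:abi1-1xQ0990 were treated in the same ways. All seedlings were 5 days old and a library pooled the roots of 50 to 100 of them. The labels do not name the cells in which each driver is active. They also do not say whether the pools were sown separately, and each p-value therefore reflects pool-to-pool spread, which may be technical.

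Abscisic acid (ABA) is a stress hormone that is also present in unstressed roots. It binds receptors of the PYR/PYL family, the bound receptors inhibit the PP2C phosphatases, ABI1 among them, and SnRK2 kinases released from the phosphatases then activate ABA-responsive genes. The abi1-1 protein escapes the receptors and keeps the pathway off in cells that make it. J0571 is widely used to drive genes in the root's ground tissue, the cortex and the endodermis. The endodermis builds the Casparian strip, a wall barrier to solutes. A difference between these mock roots concerns roots to which no ABA had been added.

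Depth was similar, with 38542817 to 46790571 counts in the C24 libraries and 43468895 to 50524499 in the J0571 libraries, and the most abundant gene took 1.53 to 1.89% of a library. Replicates differed by more than counting noise. On the first principal component of the 6 libraries, which held 35.4% of the variance, library 1 of each line lay farthest out. C24 lay at -51.4, -3.14 and -8.51 and J0571 at 33.3, 13 and 16.7, so this axis also parted the lines. Pairwise differences, as chi-square per degree of freedom against counting noise, set library 1 apart in C24 only. In C24 its pairs gave 34.8 and 31.5 and the other pair 10.4. In J0571 its pairs gave 14.9 and 13.2 and the other pair 13.2. The main counts of mock calls are given with and without library 1 of each line, while counts of other contrasts and by chromosome are given with both. Levels are given as CPM, the count scaled to the normalized size of the library. Root markers were present, with a summed level of 12 Casparian strip genes of 611 to 674 CPM in C24 and 559 to 579 CPM in J0571. The summed level of 12 leaf and chloroplast genes was 168, 105 and 106 CPM in C24 and 90.3, 115 and 109 CPM in J0571, and none of them was called.

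The mock roots of the J0571 cross differed from those of the C24 cross in a small set of genes. Calls were made by the quasi-likelihood test of edgeR where the p-value, adjusted by Benjamini and Hochberg over the 21315 genes tested, lay under 0.05. All adjusted p-values come from this test unless DESeq2 is named. Called genes numbered 91 (0.427% of the genes tested), 60 of them higher in J0571 (0.281%) and 31 lower (0.145%). The median change on the log2 scale was 0.66 in the higher genes and -0.68 in the lower genes, against -0.01 over all genes. A change of at least 1 on the log2 scale was found in 28 called genes (0.131%), 20 higher and 8 lower. The J0571 and C24 libraries did not overlap for any of the 91, a state that 15.9% of all genes shared. Small changes were called too, such as that of the cytosolic thioredoxin gene TRX3 at 0.31 ± 0.06 (SE).

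The number of calls depended on single libraries. Without C24 library 1 it was 27, without J0571 library 1 it was 28, without both it was 19, and DESeq2 called 264, all of the 91 among them. Calls that held when any 1 library was left out numbered 20. These were CASP5, CLE5, AGP30, TIP2;3, APS4, DAA1 and AT5G04120 among the lower genes. Among the higher ones they were ICL, Prx37, MAF5, ABIL1, LRB1, TRIP-1, AT2G46230, AT2G46290, AT2G09795, AT3G50300, AT2G15555, AT3G06955 and AT1G64795. Every other call was lost when some 1 of the 6 libraries was left out. Of the 91 calls, 10 held in every alternative that tested them. Among the 20, CLE5 and DAA1 were not called in a fit of the 6 mock libraries alone. AGP30 and TIP2;3 were not called in a fit of the 12 mock libraries of all lines.

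**Figure D1:**
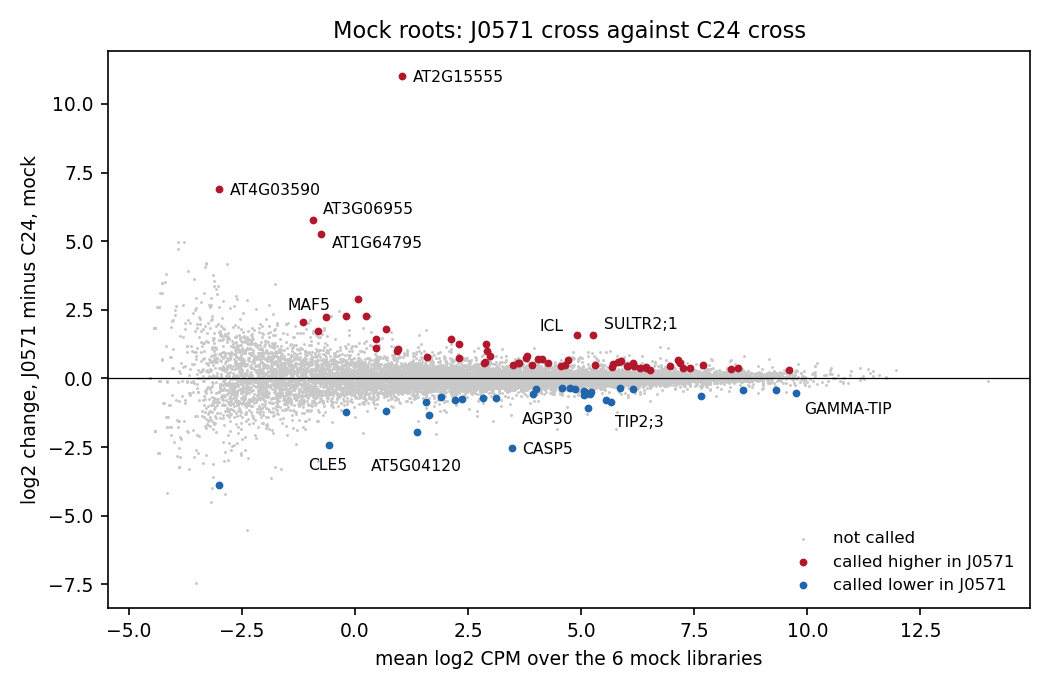
Change between lines against level for the 21315 genes tested. The x axis is the mean log2 CPM over the 6 mock libraries and the y axis the log2 change (J0571 minus C24); red points are the 60 genes called higher, blue points the 31 called lower and grey points the rest. AT2G15555 lies at 11.02 and CASP5 at -2.54, while most called genes lie within 1 of zero.

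Among genes of the endodermal barrier CASP5 was much lower in J0571. It encodes a membrane protein of the CASP family, whose members mark the place where the Casparian strip is laid down. CASP5 lay at 37.0, 22.8 and 22.0 CPM in the C24 libraries and at 3.34, 4.74 and 5.92 CPM in the J0571 libraries. Every J0571 library was below every C24 library, and the mean in J0571 was 0.172 of that in C24. The log2 change was -2.54 ± 0.26 (adjusted p = 5.00e-05). In the mock libraries of J1721 and Q0990 it lay at 23.59 ± 6.03 and 26.4 ± 5.68 CPM (SD, n = 3 libraries per group here and below), and J0571 was lower than their mean by a log2 value of -2.41 (adjusted p = 3.27e-05). That contrast reuses the J0571 libraries and is not independent of the call against C24.

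The other genes of the strip did not follow it past the test. Of 12 Casparian strip genes tested, CASP5 was the 1 called, and the median log2 change of the list was -0.13. A negative change was found in 11 of the 12, and CASP4 was the 1 with a positive change. CASP1 had a log2 change of -0.23 (adjusted p = 0.177) and CASP2 one of -0.13, while CASP4 had 0.29 (adjusted p = 0.211). PER64, a peroxidase that polymerizes lignin at the strip, had -0.21, and MYB36, the factor that switches the strip's genes on, had -0.02. The summed level of the list was 611 to 674 CPM in C24 and 559 to 579 CPM in J0571, without overlap. Bulk roots were measured, so fewer cells of a type and less RNA per cell cannot be told apart.

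Regulators of ground tissue identity were near the centre of all genes. None of 12 tested was called, with a median log2 change of -0.04 and values from -0.38 to 0.15. A negative change was found in 10 of the 12. Their summed level was 386 to 394 CPM in C24 and 376 to 379 CPM in J0571, also without overlap. SHR and SCR, which pattern the ground tissue, had -0.11 and -0.02, and JKD had -0.01. None of 17 suberin genes was called either (median 0.04). Nor was any of the 8 genes tested from the list for the miR165 and miR166 module (median -0.07), which connects endodermis and xylem in the root. That list had 17 members, the microRNA genes and HD-ZIP III factors among them. Its other members did not pass the filter on low counts, so nothing is said of them. Of the xylem lists, 0 of 12 VND factors and other regulators and 0 of 17 genes of secondary wall and vessel death were called.

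Of 20 aquaporin genes tested, 4 were called, all lower in J0571, against 0.145% called lower over all genes tested. The list was chosen with earlier results of these data known. A negative change was found in 14 of the 20 and a positive one in 6, with a list median of -0.25. TIP2;3, a channel of the vacuole membrane, lay at 85.9, 60.2 and 59.6 CPM in C24 and at 35.3, 41.5 and 37.0 CPM in J0571 (log2 change -0.85 ± 0.14, adjusted p = 0.00388). GAMMA-TIP, the vacuolar channel also known as TIP1;1, lay at 1235, 959.9 and 917.9 CPM in C24 and at 630.3, 733.8 and 777.3 CPM in J0571 (-0.54 ± 0.09, adjusted p = 0.00576). The groups did not overlap for either gene, and C24 library 1 was the highest of the C24 libraries for both.

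TIP2;2 and the plasma membrane channel PIP2A were the other members called, each at a log2 change of -0.42 (adjusted p = 0.0108 and 0.0195). Uncalled members with lower values included PIP2B at -0.34, RD28 at -0.36 and PIP1;5 at -0.40, and NLM1 was at 0.21. The summed level of the 20 genes was 6434 to 8119 CPM in C24 and 5450 to 6135 CPM in J0571. Without C24 library 1 the called aquaporin genes numbered 1, and likewise without J0571 library 1. GAMMA-TIP, TIP2;2 and PIP2A were not called in a fit of the 6 mock libraries alone. TIP2;3 was called there, but not in a fit of the 12 mock libraries of all lines or without library 1 of both lines.

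Genes for CLE peptides and for wall proteins were called in both directions. CLE5, a gene for a small secreted CLE peptide, lay at 1.81, 1.57 and 1.27 CPM in C24 and at 0.480, 0.319 and 0.0808 CPM in J0571 (-2.42 ± 0.35, adjusted p = 0.00065). Its chromosomal neighbour and close relative CLE6 fell by 1.2 on the log2 scale, from 2.43 to 1.05 CPM on average. Reads from such similar genes may not have been told apart. AGP30, an arabinogalactan protein of root cell walls, lay at 44.3, 58.6 and 52.8 CPM in C24 and at 24.8, 20.8 and 28.6 CPM in J0571 (-1.07 ± 0.15, adjusted p = 0.00117). Its J0571 libraries held 0.476 of the C24 level on average and none reached a C24 library. Called higher were CLE42 (2.23), the arabinogalactan protein gene AGP24 (0.47), the expansin gene EXPA1 (0.68) and the pectin methylesterase family gene ATPMEPCRB (0.57).

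Among the remaining lower genes were 2 more wall enzymes, with smaller changes. XTH21, an enzyme that cuts and rejoins xyloglucan, fell by 0.38 and the pectin-degrading rhamnogalacturonate lyase gene AT4G37950 by 0.84. The phosphoglycerate mutase family gene AT5G04120 lay at 3.26, 7.26 and 4.86 CPM in C24 and at 1.28, 1.53 and 1.19 CPM in J0571 (-1.95 ± 0.30). DAA1, an ATPase gene, lay at 6.57, 5.63 and 5.92 CPM in C24 and at 3.45, 3.11 and 3.98 CPM in J0571 (-0.78 ± 0.13). The J0571 values of both genes were below every C24 value. Others were the MADS box gene AGL17 (-0.68), the cytokinin response regulator gene ARR11 (-0.58), the P450 gene CYP718 (-1.33), the lectin gene AT5G35940 (-0.80), the transporter gene AT3G05160 (-0.73), the remorin gene AT4G00670 (-0.71) and the malate transporter family gene AT5G46600 (-0.70).

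**Figure D2:**
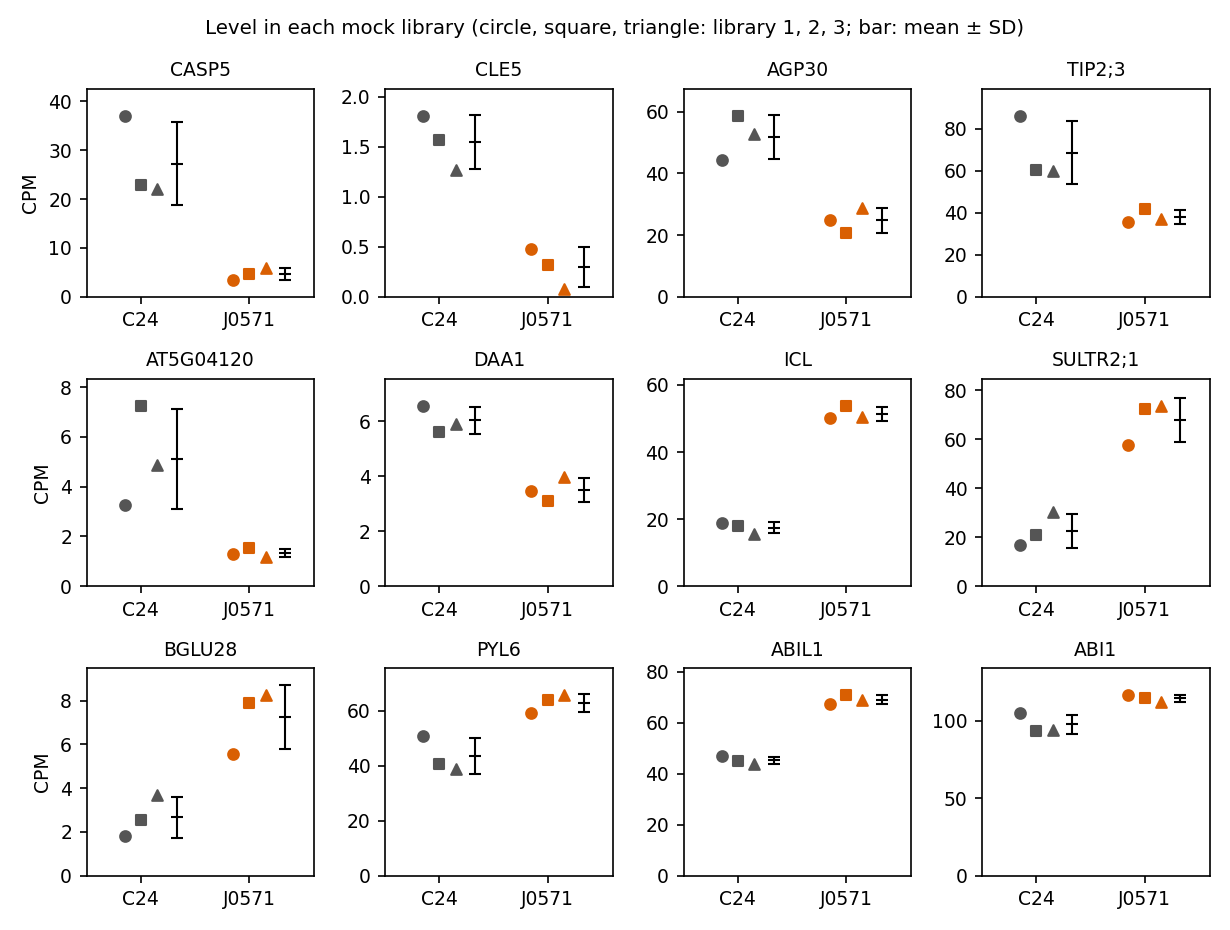
Level of 12 genes in each of the 6 mock libraries. The y axis of each panel is CPM on a linear scale from 0; circles, squares and triangles are libraries 1, 2 and 3, grey for C24 and orange for J0571, and the bar beside each group is its mean and SD. CASP5, CLE5, AGP30, TIP2;3, AT5G04120 and DAA1 are lower in every J0571 library, and ICL, SULTR2;1, BGLU28, PYL6 and ABIL1 higher; ABI1 is shown as the gene from which the transgene derives and was not called.

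ABI1 itself was measured at 105, 93.7 and 94.3 CPM in C24 and at 117, 115 and 112 CPM in J0571. Its 3 J0571 libraries were the higher ones, yet the log2 change of 0.23 ± 0.12 was not called (adjusted p = 0.495). Transgene and native transcripts are counted together here. None of the 9 PP2C phosphatase genes was called, with a list median of -0.20 and 7 negative values. ABI2 was at -0.20, HAB1 at 0.07 and PP2CA at -0.12.

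Of 11 ABA receptor genes tested, 1 was called. PYL6 lay at 50.9, 40.7 and 38.6 CPM in C24 and at 59.1, 63.7 and 65.6 CPM in J0571 (0.53 ± 0.12, adjusted p = 0.0369). The 3 J0571 libraries were all higher, and the call was lost when any 1 of 5 of the 6 libraries was left out, C24 library 1 being the exception. PYL2 had 0.46, PYL5 0.30 and PYL4 0.14, none called. Of 23 genes of the LEA and dehydration list 1 was called: P5CS1, which makes the first intermediate of proline synthesis, lay at 59.8, 70.3 and 66.4 CPM in C24 and at 50.4, 51.9 and 52.7 CPM in J0571 (-0.34 ± 0.08, adjusted p = 0.0447), a call that was likewise lost in 5 of these 6 omissions. Of the changes on that list 9 were positive, 11 negative and the others exactly 0. The list median of 0 was one of these zeros and is not read as a lack of change. COR47 had -0.24 and LTI78 (RD29A) -0.12.

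ABA-responsive genes were then defined from the ABA and mock libraries of J1721 and Q0990. Those libraries are not among the 6 compared, although they entered the same fit and so the shared filter and estimate of spread. At a mean log2 change of at least 1 in those lines, 1107 genes were raised by ABA (5.19% of genes tested) and 659 lowered (3.09%). In mock J0571 roots 11 of the raised genes were called lower and 1 higher, and of the lowered genes 9 were called higher and 0 lower. The lower calls on the raised list were CASP5, CLE5, AGP30, TIP2;3, DAA1, P5CS1, WAKL2, AT5G04120, AT5G15180, AT1G62510 and AT4G13620. The higher calls on the lowered list were ICL, Prx37, PYL6, BGLU28, GSTF14, CLE42, EDA32, AT4G12490 and AT2G32487. BAG6 was the raised gene called higher.

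The lower calls on the raised list made up 35.5% of the lower calls and 0.994% of that list. The higher calls on the lowered list made up 15% of the higher calls and 1.37% of that list. Over all genes tested 0.145% were called lower and 0.281% higher, and the difference between these shares was not tested. As a whole, the raised list had a median log2 change of -0.02 and the lowered list one of 0.16, against -0.01 over all genes. The remaining 70 called genes, 50 higher and 20 lower, stood on neither list. With DESeq2 the raised list held 23 lower and 20 higher calls and the lowered list 19 higher and 4 lower. Without C24 library 1 the lower calls on the raised list were 7 and the higher calls on the lowered list 3, and without J0571 library 1 they were 7 and 2.

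Sulfate genes were among the largest rises. SULTR2;1, a low-affinity sulfate transporter of vascular tissue, lay at 16.6, 20.7 and 30.3 CPM in C24 and at 57.6, 72.2 and 73.6 CPM in J0571, a log2 change of 1.59 ± 0.26 (adjusted p = 0.00907). BGLU28, a beta-glucosidase gene induced by sulfur shortage, lay at 1.81, 2.54 and 3.68 CPM in C24 and at 5.57, 7.91 and 8.26 CPM in J0571 (1.44 ± 0.32, adjusted p = 0.0445). In both genes library 1 was the lowest of its line. They were the 2 members called of 12 on the list, whose median was 0.41 and whose 12 changes were all positive. Over all genes tested 0.281% were called higher, and this list too was chosen with earlier results known. LSU1, LSU2 and LSU3, further genes of the sulfur shortage response, were at 0.79, 0.47 and 0.35 and were not called. SULTR1;1 and SULTR1;2, which take sulfate up at the root surface, were at 0.51 and 0.30. The summed level of the list was 976 to 1184 CPM in C24 and 1271 to 1479 CPM in J0571. Without C24 library 1 no member was called. Leaving out J0571 library 1 left 1 member called.

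ATP sulfurylase, which activates sulfate after uptake, changed in both directions. APS1 rose from 282 ± 23.55 to 360 ± 8.04 CPM (0.35 ± 0.08, adjusted p = 0.0312), and APS4 fell from 253 ± 39.5 to 162 ± 11.4 CPM (-0.64 ± 0.10, adjusted p = 0.00117). HL, a HAL2-like nucleotide phosphatase gene, rose by 0.42, and SOT7, a sulfotransferase gene, rose from 3.17 to 7.55 CPM (1.25 ± 0.24). These 4 genes were not on the sulfate list and are named because they were called.

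ICL, the isocitrate lyase of the glyoxylate cycle, lay at 18.8, 17.8 and 15.5 CPM in C24 and at 50.0, 53.8 and 50.4 CPM in J0571. The replicates of each line were close together and the lines 2.96 times apart, at a log2 change of 1.56 ± 0.18 (adjusted p = 6.27e-05). ICL kept its call in all 16 alternatives tried. In J1721 and Q0990 mock roots it lay at 30.4 ± 5.86 and 20.6 ± 2.49 CPM, and J0571 exceeded their mean by 1.04 on the log2 scale (adjusted p = 0.00104). The J0571 libraries are again the same in that contrast, which is not independent of the call. Further rises were those of the glutathione transferase gene GSTF14 (1.26), EDA32 (0.99), the cinnamyl alcohol dehydrogenase gene CAD6 (0.75) and the cutinase gene CDEF1 (0.73). Of GSTF14, J0571 library 1 held 17.3 CPM against 9.37 and 8.72 CPM in its replicates. The J1721 mock libraries held 23.5, 16.8 and 18.4 CPM of it and the Q0990 mock libraries 2.79, 3.98 and 3.86 CPM. GSTF14 was not called in a fit of the 6 mock libraries alone. MAF5, a MADS box gene of the FLC clade, lay at 0.326, 0.268 and 0.555 CPM in C24 and at 1.8, 1.51 and 2.24 CPM in J0571 (2.27 ± 0.32, adjusted p = 0.00033). Every J0571 library was above every C24 library for MAF5.

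Other nutrient and defence lists leaned one way without a call. Of 18 iron uptake genes, 17 had a positive change and the median was 0.57, with IRT1, the main iron transporter, at 0.71 ± 0.31 and FRO2, which reduces ferric iron at the root surface, at 0.81 ± 0.29. FRO3, with the smallest adjusted p of the list, was at 0.51 (0.059). Their summed level was 3563, 4466 and 5214 CPM in C24 and 6498, 6045 and 5145 CPM in J0571, so that the lines overlapped. DESeq2 called 4 iron genes, and 2 were called by edgeR without J0571 library 3. Of 13 aliphatic glucosinolate genes all had a positive change (median 0.67), none was called, and their summed level was 355, 859 and 699 CPM in C24 and 1161, 866 and 813 CPM in J0571. Library 1 was the lowest of C24 and the highest of J0571, and without C24 library 1 the median was 0.32. Of 16 root hair and epidermis genes 13 were positive (median 0.19) and of 15 nitrate genes the median was 0.17.

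Over the 32 lists, 423 different genes were tested and 9 were called (2.13%), 3 higher and 6 lower, against 0.427% called over all genes tested. The lists were chosen with earlier results of these data known, so the difference between these shares is not a result about the lists. The 27 lists with no call included those for cell division (median -0.04), phloem (-0.02), root cap (-0.14), stele patterning (-0.02), auxin response (-0.15) and the circadian clock (-0.17).

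**Figure D3:**
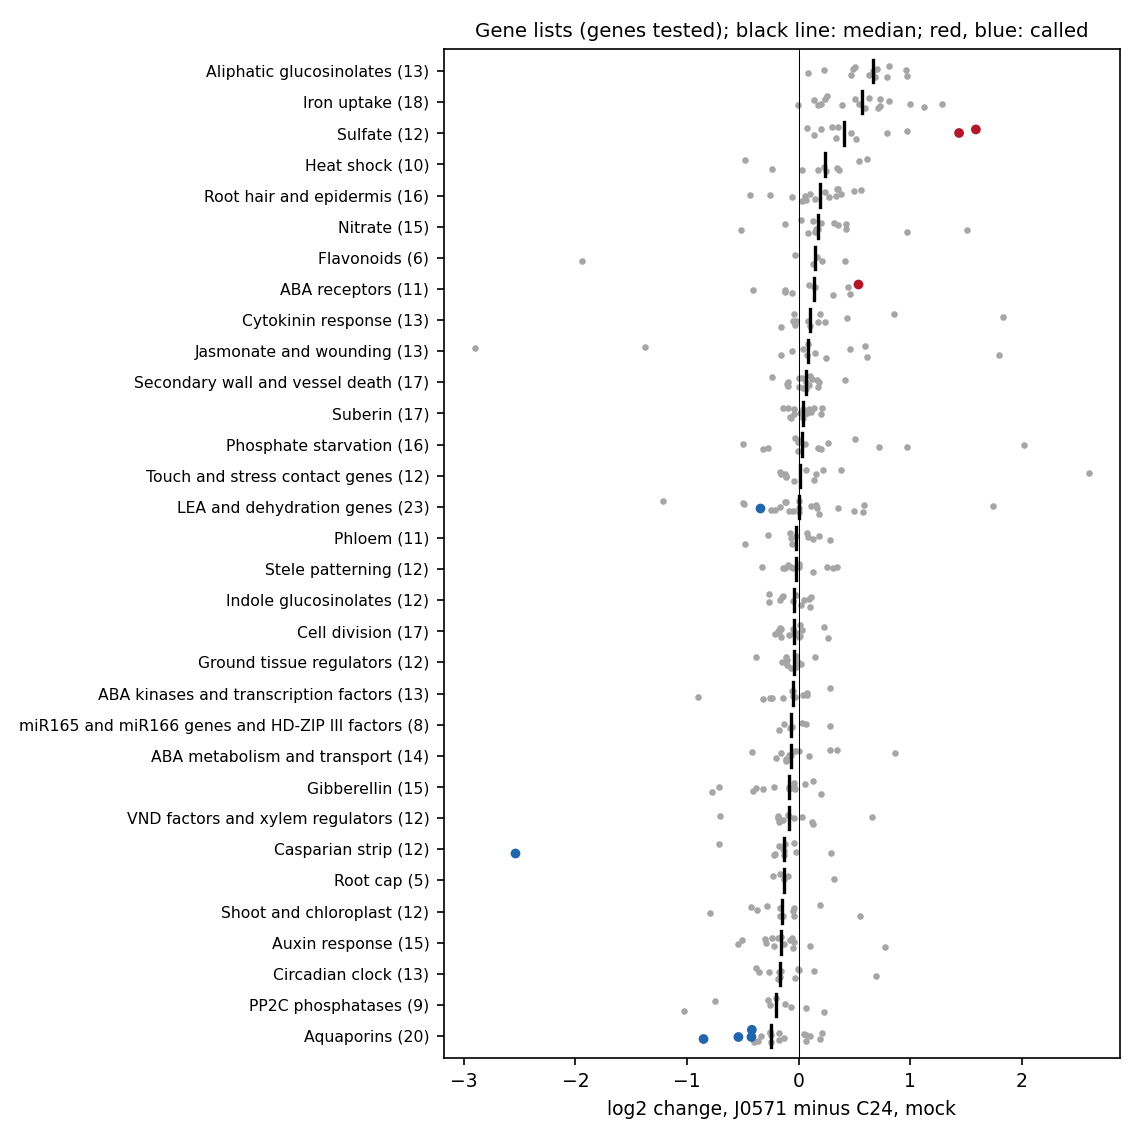
Log2 change of the tested members of the 32 gene lists (J0571 minus C24, mock). Each point is a gene, each row a list with its number of genes tested, the black line is the list's median, and red and blue points are members called higher and lower. Aliphatic glucosinolates (0.67), iron uptake (0.57) and sulfate genes (0.41) have the highest medians and aquaporins (-0.25) the lowest; the 9 called genes fall in 5 lists.

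The same lines were measured again in ABA-treated pools, which share no library with the mock comparison, although both contrasts came from 1 fit. There 813 genes were called between J0571 and C24 (3.81%), 422 higher (1.98%) and 391 lower (1.83%). Of the 60 genes higher in mock, 28 were also called higher with ABA (46.7%), and of the 31 lower ones 17 were called lower (54.8%). None was called in the opposite direction, 86 of the 91 had the same sign and 46 were not called with ABA. Without C24 mock library 1 the genes called in both sets numbered 22 in place of 45, and without J0571 mock library 1 they numbered 21.

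With ABA, CASP5 was again lower in J0571, at 17.2 ± 2.87 CPM against 82.7 ± 6.91 CPM in C24 (-2.26, adjusted p = 9.23e-06). TIP2;3 lay at 270.3 ± 4.68 and 111.5 ± 8.41 CPM (-1.28), and CLE5 at 7.70 ± 0.969 and 2.71 ± 0.699 CPM (-1.50). ICL lay at 7.36 ± 1.25 CPM in C24 and 28.7 ± 2.47 CPM in J0571 (1.96). AGP30 was not called with ABA, at 239 ± 4.94 and 216 ± 11.9 CPM (-0.14, adjusted p = 0.654). The interaction for AGP30, the difference between its mock and ABA changes, was 0.93 and was not called (adjusted p = 0.0552).

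**Figure D4:**
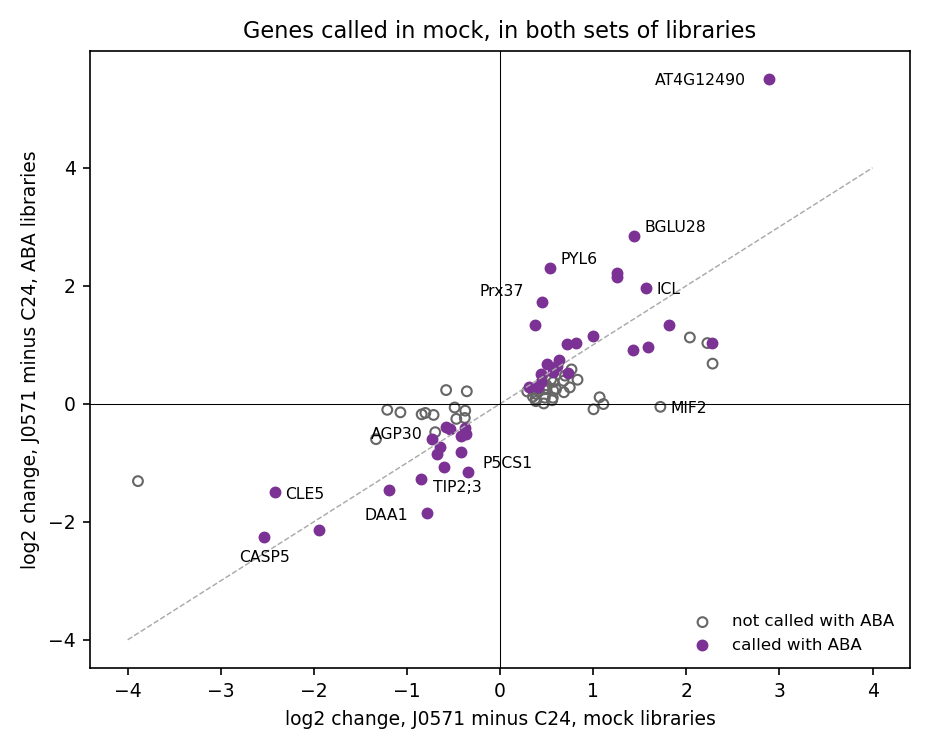
Change between lines (J0571 minus C24) in mock libraries (x axis) and in ABA libraries (y axis), both in log2 units, for 87 of the 91 genes called in mock; 4 genes with a mock change above 4 lie beyond the x axis. Filled purple points are genes also called with ABA, open points are not called there, and the dashed line marks equal changes. CASP5, CLE5 and ICL lie far from zero on both axes, while AGP30 and MIF2 lie near zero on the ABA axis.

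The other driver crosses gave a second reference for the mock roots. J1721 and Q0990 each differed from C24 in 11 genes (0.0516%), in comparisons that share the C24 mock libraries with that of J0571. Set against the mean of J1721 and Q0990, J0571 differed in 50 genes (0.235%), 24 higher (0.113%) and 26 lower (0.122%). That contrast shares the J0571 libraries, so values are given by gene. On the log2 scale AGP30 was at -1.1 from the other driver lines (adjusted p = 0.000183), GAMMA-TIP at -0.52 (0.0018) and SOT7 at 1.31 (0.00112). The values of DAA1 (-0.27, adjusted p = 0.576), APS4 (-0.29, 0.295), SULTR2;1 (0.88, 0.141), MAF5 (0.97, 0.115) and PYL6 (0.29, 0.396) were not called. For SULTR2;1 the mock level was 45.2 ± 5.96 CPM in J1721 and 30.1 ± 11.8 CPM in Q0990, between those of C24 and J0571. For MAF5 it was 1.05 ± 0.187 and 0.854 ± 0.314 CPM, also between them.

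A few genes were close to absent in one line. AT2G15555, a noncoding RNA gene, had 4 counts over the 3 C24 libraries and 9842 over the 3 J0571 libraries, 2257 times as high on normalized library sizes (95% interval 881 to 8285, counting error only). It lay at 66.7, 70.0 and 68.8 CPM in J0571, and at 66.7, 73.5 and 73.6 CPM in the Q0990 mock libraries, but at 0.285, 0.957 and 0.388 CPM in J1721. J0571 and Q0990 were thus high, and C24 and J1721 near zero. The labels do not give the parental background of the driver lines, so a difference of background and an effect of the driver cannot be told apart in these crosses. AT3G06955, a long noncoding RNA gene, had 7 counts in C24 and 442 in J0571, 57.9 times as high (27.9 to 145), and differed from C24 by 5.84 in Q0990 too. AT4G03590, of the cystatin superfamily, had 0 counts in C24 and 46 in J0571, at least 14.1-fold higher if C24 is set to a floor of 3 counts in all, and was present in Q0990 at 0.479, 0.685 and 0.482 CPM.

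AT1G64795, whose product is not characterized, had 10 counts in C24 and 441 in J0571, 40.5 times as high (21.8 to 84.9). It lay at 2.38, 3.35 and 3.41 CPM in J0571 and at 0.0416, 0 and 0 CPM in Q0990, and at 0.0714, 0.191 and 0.0554 CPM in J1721. Among the 4 lines it was high in J0571, in mock and with ABA, where it lay at 3.08 ± 0.339 CPM against 0.0389 ± 0.0359 CPM in C24. In the other direction AT1G62510, of the lipid transfer and seed storage family, had 32 counts in C24 and 2 in J0571, 17.4 times lower (4.45 to 150).

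Some called genes also stood close together on chromosome 2. That chromosome held 23 calls among 3233 genes tested (0.711%), against 0.318 to 0.462% on the other chromosomes. Its share includes the 6 called genes of the run below, so share and run are not separate observations. The run of genes described next was picked after its values had been seen and carries no test of its own. In RefSeq gene order, 6 of the 9 tested genes from ABIL1 to AT2G46290 were called, all higher, with log2 changes of 0.51 to 0.71 and J0571 levels 1.42 to 1.64 times those of C24. Windows of 10 adjacent tested genes were shifted by 1 gene at a time and so overlapped. Of these, 20392 held no called gene and 770 held 1. Calls of 2, 3, 4 and 5 were found in 29, 11, 3 and 3 windows, and the 2 windows with 6 both covered this run.

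ABIL1, an Abl interactor-like subunit of the SCAR/WAVE complex that is unrelated to ABI1, lay at 46.8, 44.9 and 43.9 CPM in C24 and at 67.3, 70.8 and 68.7 CPM in J0571 (0.61 ± 0.07, adjusted p = 1.57e-05). LRB1, a BTB protein gene of light signalling, lay at 62.2, 56.5 and 56.5 CPM in C24 and at 82.8, 89.4 and 87.4 CPM in J0571 (0.57 ± 0.07). The lines were parted by more than the whole range within each in both genes. TRIP-1, which encodes a subunit of translation initiation factor eIF3, rose by 0.51 ± 0.06, its near copy AT2G46290 by 0.71 ± 0.11, the PIN domain gene AT2G46230 by 0.63 ± 0.08 and the co-chaperone gene BAG6 by 0.57 ± 0.12. Reads of TRIP-1 and AT2G46290 may have been split between them.

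The 3 uncalled genes inside the run, AT2G09710, AT2G46250 and GBF3, were at 0.66, 0.30 and 0.35, and the 8 flanking genes lay between -0.18 and 0.23. In J1721 and Q0990 the 6 genes lay between -0.13 and 0.07 of C24, and all 6 were called against the mean of those lines. Over all genes tested 0.235% were called in that contrast. It reuses the J0571 libraries by which the run was picked, so it is not independent of that choice. With ABA 5 of the 6 were called again, at 0.53 to 1.02, and BAG6 was at 0.37 (adjusted p = 0.0832). Without library 1 of either line 5 were called in mock, and 4 without both.

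**Figure D5:**
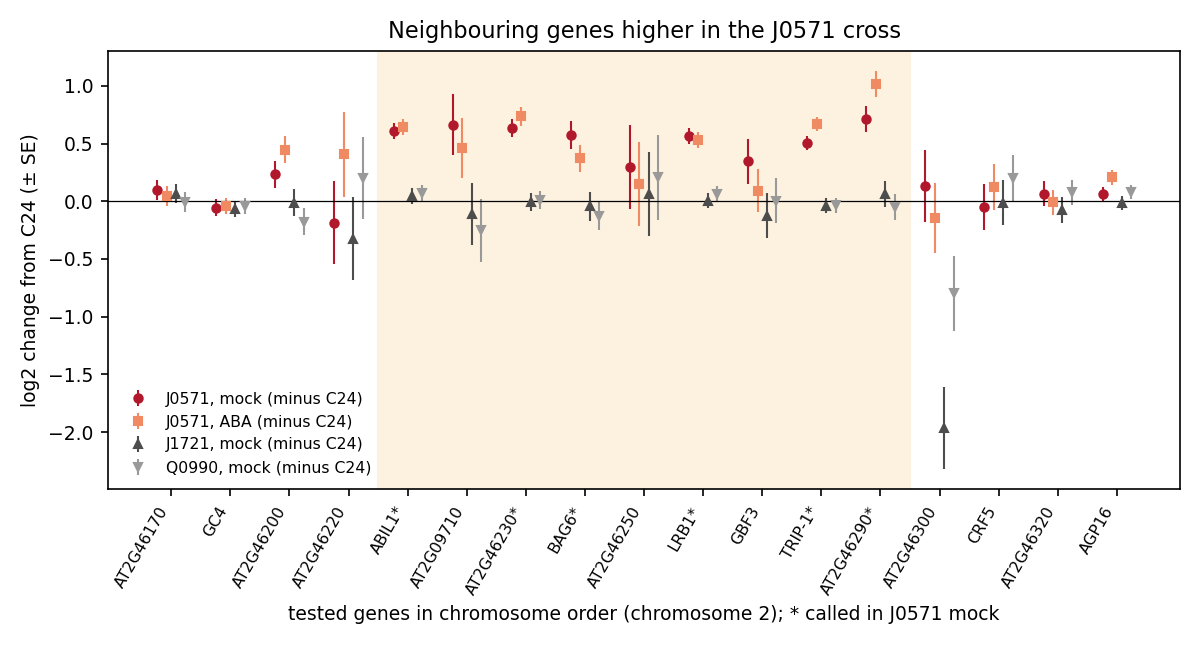
Log2 change from C24 with its SE for 17 neighbouring tested genes on chromosome 2, in RefSeq gene order. Red circles and orange squares are J0571 in mock and with ABA, dark triangles and light inverted triangles J1721 and Q0990 in mock; an asterisk marks a gene called in J0571 mock and the shaded band the 9 genes of the run. The 6 called genes lie at 0.51 to 0.71 in J0571 and near zero in the other lines.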

How the data were processed

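Whole-number read counts per gene, as the authors deposited them in 1 table of 24 libraries, were the starting point. HISAT2 and HTSeq are named, without versions, in the submitters' processing notes. Build, annotation and strand setting were not given in the sources used here, and overlapping or antisense genes may share reads. Per the labels' protocols, RNA was column-purified and NEBNext Ultra libraries were read in pairs of 150 bases. Of 34218 features, 32536 matched a locus of the RefSeq table of TAIR10.1, used for names and gene order only, and no coordinates or sequences are given.

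Library sizes were scaled by the trimmed mean of M values in edgeR 4.0.16 (with limma 3.58.1 under R 4.3.3), and genes were tested in 1 quasi-likelihood fit of 8 group means over all 24 libraries, after edgeR's filter on low counts, with Benjamini-Hochberg adjustment over 21315 genes. The script was tested on simulated data. DESeq2 1.42.0 was an alternative. Levels are CPM on normalized library sizes, and SEs of log2 changes come from the fit. Ratios of small counts carry exact 95% intervals that cover counting error only. Other alternatives were the scaling, the low-count filter, fits of fewer libraries, a replicate block and the omission of each library.

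The 32 gene lists and the members were chosen with earlier results of these data known. They had 502 members, of which 29 matched no gene or several, 5 matched another gene and were dropped, and 465 different loci were left. Lists are described by their calls and median, with no set test. Genes named were the 12 largest rises and 12 largest falls among genes called with a mean log2 CPM of at least 1, no overlap and a nuclear locus, the 10 smallest p-values, list members, ABI1, genes without a count in one line and runs of neighbouring called genes. Other called genes are named because the counts or comparisons single them out, after their values were seen.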

Additional observations from a re-analysis of the deposited data

Results flagged for a closer look

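The change between lines differed between mock and ABA libraries for 8 of the 91 genes called in mock, by the interaction of line and treatment in edgeR's quasi-likelihood fit with Benjamini-Hochberg adjustment. Over all 21315 genes tested 88 were called in that test (0.413%). The interaction uses the mock libraries by which the 91 genes were called, so it is not independent of that call.

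In 5 genes the difference was larger with ABA. PYL6, the ABA receptor gene, was higher in J0571 by 0.53 in mock and by 2.3 with ABA, an interaction of 1.77 ± 0.18 (SE, adjusted p = 2.23e-06), and its ABA levels were 3.91 ± 0.65 CPM in C24 and 19.3 ± 1.67 CPM in J0571 (SD, n = 3 libraries). For the peroxidase gene Prx37 the changes were 0.45 and 1.72 and the interaction 1.27 ± 0.11 (adjusted p = 8.72e-08); with ABA it lay at 22.6 ± 1.14 CPM in C24 and 74.3 ± 7.4 CPM in J0571. Another peroxidase gene, AT4G11290, had changes of 0.37 and 1.33 and an interaction of 0.96 ± 0.10 (adjusted p = 2.23e-06). P5CS1 was lower in J0571, at -0.34 in mock and -1.16 with ABA, an interaction of -0.82 ± 0.11 (adjusted p = 0.000112). DAA1 was at -0.78 and -1.86, an interaction of -1.08 ± 0.18 (adjusted p = 0.00132), with 39.1 ± 2.59 CPM in C24 and 10.8 ± 0.141 CPM in J0571 under ABA.

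In the other 3 the mock difference was near zero or opposite in sign with ABA. MIF2, a mini zinc finger gene, was at 1.72 in mock and -0.05 with ABA, an interaction of -1.77 ± 0.41 (adjusted p = 0.0498). The transaminase family gene AT4G28410 went from -0.36 to 0.21, an interaction of 0.57 ± 0.11 (adjusted p = 0.00959), and the methyltransferase family gene AT4G33120 from -0.58 to 0.23, an interaction of 0.81 ± 0.18 (adjusted p = 0.0405). The ABA changes of these 3 genes were not called.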

How the results depend on the processing

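No gene called in mock changed sign under any of the 16 alternatives that tested it, and ABI1 stayed uncalled at 0.20 to 0.29. The lines did not overlap for any called gene, so leaving out a library could hardly reverse a sign. The other alternatives reused the same libraries, so the kept signs are no separate evidence of direction. Of 1443 values of single genes under an alternative, 879 kept their side of the threshold and 564 lost the call. The counts of calls moved. Leaving out 1 library gave 27 to 65 called genes in place of 91, 18 to 44 higher, 9 to 23 lower, 11 to 23 at an absolute log2 change of at least 1, and 3 to 8 members of the gene lists in place of 9. Without mock library 1 of both lines 19 genes were called, 14 higher and 5 lower, 10 of them at a change of at least 1. DESeq2 called 264 genes, 193 higher and 71 lower, 75 at a change of at least 1, and 19 list members. Other scalings and filters gave 79 to 94 calls, and a stricter filter at a mean log2 CPM of 1 left 17 at a change of at least 1. A fit of the 6 mock libraries gave 75 calls, 12 of them lower and 44 shared with the 91, and a fit of the 12 mock libraries of all lines 66, 14 of them lower and 47 shared. The cause was not tested for any of these.

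Of the ABA-raised genes 11 were called lower and 1 higher, and of the ABA-lowered genes 9 higher and 0 lower. With lists at a change of at least 2 these were 5, 0 and 4 for the first 3 counts, and with DESeq2 they were 23, 20, 19 and 4. Without mock library 1 of C24 they were 7, 0 and 3, without that of J0571 7, 0 and 2, and without both 4, 0 and 2. Genes called in mock and with ABA numbered 45, against 22, 21 and 16 in those settings and 74 with DESeq2. These settings without library 1, and DESeq2 for these counts, were chosen after seeing the data.

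Groups share replicate numbers, but same-numbered libraries of the lines did not deviate together: the correlations of their deviations over 17391 genes were -0.357, -0.345 and -0.0647. Differently numbered libraries had correlations from -0.121 to 0.333. The highest were C24 library 1 with J0571 library 2 (0.333) and C24 library 2 with J0571 library 1 (0.324). A batch shared under another pairing was not tested. With the number as a replicate block the fit of 24 libraries gave 93 calls, 81 of them shared with the 91. The replicate block in the 6 mock libraries gave 28 calls, 19 of them shared, 23 higher and 5 lower, 16 of them at a change of at least 1, and CASP5 was not called there (adjusted p = 0.265).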

Other observations

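Peroxidase genes stood on both sides. Among called genes, 4 of the peroxidase superfamily were higher in J0571 (Prx37 at 0.45, AT4G11290 at 0.37, AT1G71695 at 0.44 and AT2G18150 at 1.81) and AT5G15180 was lower, at -0.60 (41.4 to 27.3 CPM on average). AT2G18150 lay at 0.351, 1.11 and 1.23 CPM in C24 and at 4.0, 2.15 and 3.45 CPM in J0571.

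Called genes with small rises included 3 of mitochondrial respiration. The succinate dehydrogenase subunit gene SDH7 rose by 0.47 (61.0 to 84.4 CPM), the cytochrome c gene CYTC-2 by 0.39 (68.5 to 89.9 CPM) and AT2G33220, annotated as a GRIM-19 protein of complex I, by 0.29 (82.4 to 101 CPM). The J0571 libraries were above the C24 libraries for each, and each call was lost in at least 5 of the 6 omissions of 1 library. All genes in both paragraphs were grouped after their values were seen, and no test was made of a group.

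In the neighbouring pair MYB30 and MIF2 on chromosome 3 both genes were higher, by 0.70 and 1.72. MYB30, a regulator of the defence response, lay at 11.1, 17 and 13.4 CPM in C24 and at 25.6, 21.8 and 20.0 CPM in J0571. MIF2 was higher than in C24 in the other driver lines as well, by 1.49 in J1721 and 1.30 in Q0990, in comparisons that share the C24 libraries.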
